A study of Mus musculus with 13 samples.

Results

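Lpcat3 and the other genes for enzymes that put a fatty acid back onto a lysophospholipid were followed across hippocampal libraries of mice with amyloid plaques. The 9 genes were taken by name (Lpcat3, Mboat7, Mboat1, Mboat2, Lpcat1, Lpcat2, Lpcat4, Lclat1 and Lpgat1) from a table of 56980 genes. All 9 were found by Ensembl identifier, and all 9 were among the 17549 genes with enough reads to be tested. RNA was sequenced in bulk in 13 samples of hippocampus from male mice aged 9 months. Every sample carried App NL-G-F, a knock-in of familial Alzheimer's disease mutations into the amyloid precursor protein gene, and Lpcat3 f/f, Lpcat3 flanked by loxP sites on both chromosomes. In 7 samples vav1-CRE was also present, and these are called Cre-positive here and knockout in the labels. The other 6 lacked Cre and are called controls here and WT in the labels, although they carry the same App and floxed alleles. The labels give tamoxifen by gavage (20 mg/ml, 0.2 mg per g body weight) for all samples and do not say whether recombination depended on it. The Vav1 promoter drives Cre in blood-forming cells and their descendants, microglia included, and not in neurons, astrocytes or oligodendrocytes. The floxed gene was therefore expected by design to stay intact in most cells of the tissue, and recombination was not measured here. Separate animals are not named as the source of the samples, and a p-value here reflects only sample-to-sample spread, part of which may be technical.

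Membrane phospholipids are built with one set of fatty acids and then remodelled. A phospholipase A cuts off a fatty acid and leaves a lysophospholipid, and a lysophospholipid acyltransferase attaches a new one, a loop known as the Lands cycle. The enzymes come from distinct protein families. Lpcat3, Mboat1, Mboat2 and Mboat7 are membrane-bound O-acyltransferases, whereas Lpcat1, Lpcat2, Lpcat4, Lclat1 and Lpgat1 belong to the family of the acylglycerolphosphate acyltransferases. Each prefers certain head groups and fatty acids, so their balance sets which lipids hold arachidonic acid. Lpcat3 is the main enzyme for placing polyunsaturated fatty acids, arachidonic acid among them, into phosphatidylcholine and phosphatidylethanolamine.

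Whether reads could be exchanged between these related genes was checked on their sequences. In GENCODE M21 transcripts no window of 50 bases was shared on the same strand between any of the 9 genes and another gene. The longest exact runs shared by coding sequences of 2 members were 19 bases in Mboat1 and Mboat2, and 18 bases in Lpcat1 and Lclat1 and in Lpcat2 and Lpcat4. These 3 pairs are shown because they are the closest matches within the group, each as a stretch of coding strand, 5′ to 3′, with the shared run in capitals.
Mboat1: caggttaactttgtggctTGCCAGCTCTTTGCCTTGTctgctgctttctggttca
Mboat2: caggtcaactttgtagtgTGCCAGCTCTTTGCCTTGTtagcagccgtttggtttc
Lpcat1: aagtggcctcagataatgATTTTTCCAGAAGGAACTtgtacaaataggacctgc
Lclat1: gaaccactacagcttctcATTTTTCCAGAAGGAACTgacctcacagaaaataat
Lpcat2: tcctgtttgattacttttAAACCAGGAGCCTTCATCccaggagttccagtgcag
Lpcat4: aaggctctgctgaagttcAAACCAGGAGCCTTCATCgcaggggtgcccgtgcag
Overlap with genes on the opposite strand was the larger source of uncertainty, because the strand setting of the counting is not given. Of the windows of 50 bases in Lpcat3, 8.39% were also found in Emg1, a ribosome assembly factor gene whose end overlaps that of Lpcat3 by 334 bases. The shares were 6.95% for Lpcat2 (with Gm45472), 2.06% for Mboat7 (with Tsen34) and 0.618% for Mboat2 (with 2900060N12Rik). Mboat1, Lpcat1, Lpcat4, Lclat1 and Lpgat1 shared none.

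The libraries held 12159941 to 18322559 counted reads. Levels are given in CPM, read counts scaled to library size with TMM factors. Markers of excitatory neurons, the principal cells of the hippocampus, summed to 4216 to 5133 CPM over all samples. The choroid plexus, which adjoins the hippocampus, was present to very different extents, with marker sums of 78.6 to 1874 CPM in controls and 64.5 to 3077 CPM in Cre-positive samples. By the numbers in their titles the samples fall into 3 runs, which the groups fill unevenly. The run from 3283 to 3288 holds 1 control and 5 Cre-positive samples, that from 3296 to 3300 holds 3 and 1, and that from 4301 to 4307 holds 2 and 1. No meaning is given for these runs.

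Lpcat3 was the member that separated the groups. The gene lies on chromosome 6 (ENSMUSG00000004270). In controls it ranged from 24.7 CPM through a median of 28.2 to 30.3 CPM, and in Cre-positive samples from 17.3 through 19.0 to 24.3 CPM, from 216 to 470 reads per library. Every Cre-positive sample thus lay below every control. The gap was narrow, since Cre-positive replicates 3 (24.3 CPM) and 6 (23.7 CPM) came close to control replicates 1 (24.7 CPM) and 4 (25.3 CPM), and the other 5 Cre-positive samples were at 20.5 CPM or less. The means were 27.6 ± 2.22 CPM (SD, n = 6) and 20.2 ± 2.83 CPM (SD, n = 7). The log2 fold change was -0.45 (SE 0.088, 95% interval -0.64 to -0.27), which leaves 0.731 of the control level (95% interval 0.644 to 0.831).

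**Figure D1:**
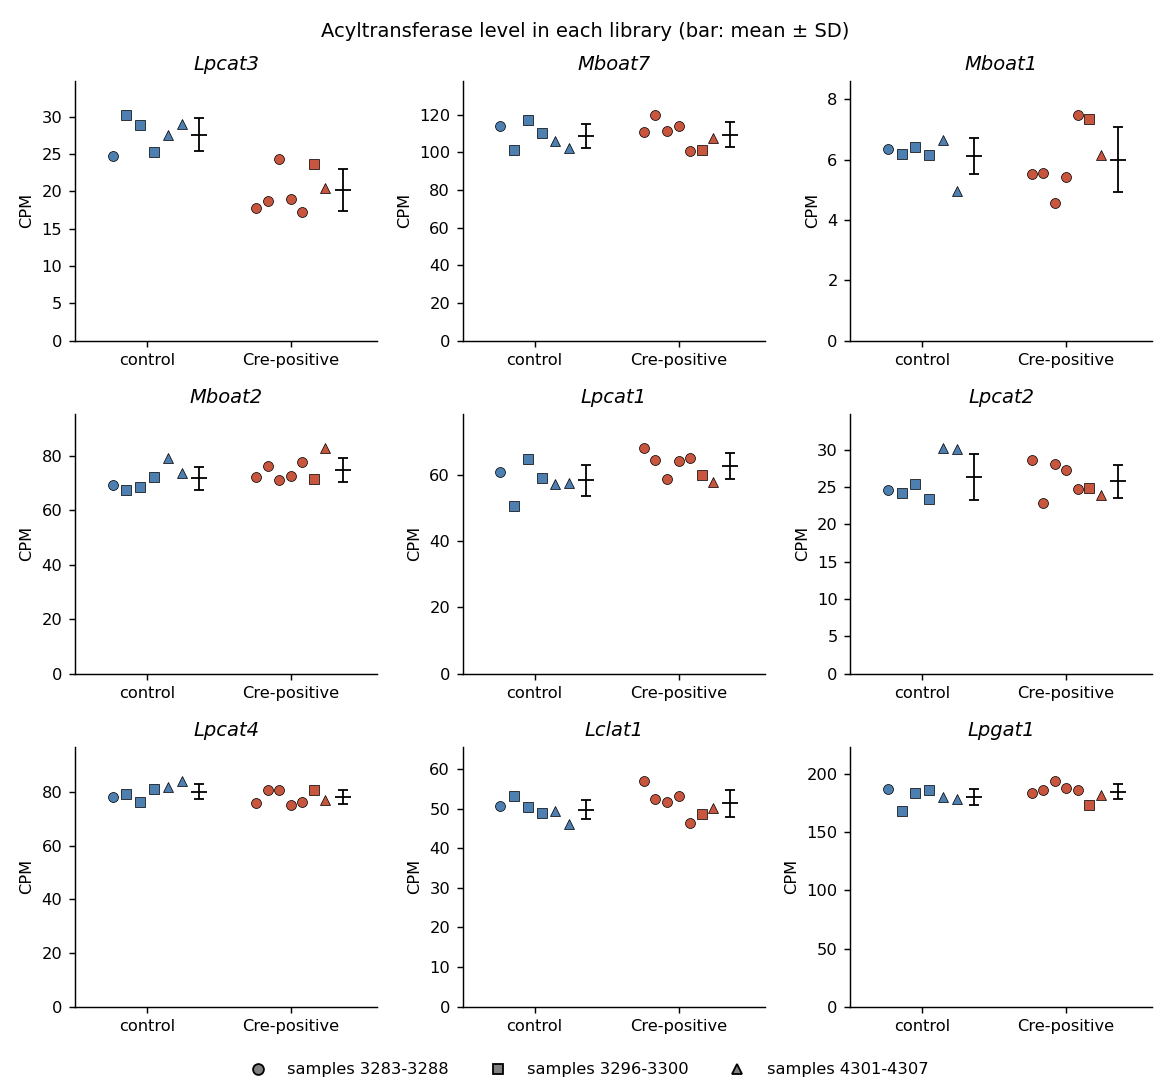
Level of each acyltransferase gene in every library, in CPM scaled by TMM factors (vertical axes, linear, starting at 0), for 6 controls (blue) and 7 Cre-positive samples (red); the marker shape gives the run of sample numbers, and the bar is the group mean ± SD. The Lpcat3 points of the groups do not overlap (control minimum 24.7, Cre-positive maximum 24.3 CPM), while those of the other genes do.

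After adjustment over all genes Lpcat3 did not pass in edgeR's quasi-likelihood test (unadjusted p = 6.6e-05, adjusted p = 0.096), where it stood at place 9 of 17549 genes in order of p. It passed in DESeq2 (adjusted p = 0.0020) but not in limma-voom with sample weights (adjusted p = 0.056). In edgeR 0 of the 9 members passed at an adjusted p of 0.05, 1 (Lpcat3) had an unadjusted p under 0.05, and DESeq2 called 1 (Lpcat3). Among all genes tested edgeR called 0.0228% (0.0057% as lower), and an unadjusted p under 0.05 was held by 12.5%. DESeq2 called 1.42% of the 12785 genes to which it gave an adjusted p. Groups that did not overlap, with Cre-positive samples lower, were found for 1 of 9 members (Lpcat3) and for 0.274% of all genes tested, or 0.444% in either direction. The count of a gene covers all its exons, and the labels do not say which exons are floxed. Transcripts that lost those exons but were otherwise kept would still be counted, so the value is not a measure of recombination.

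Lpcat3 is given by run as a description, since the groups did not overlap as a whole and each run has an arm of 1 sample. In the run from 3283 to 3288 the single control had 24.7 CPM and the 5 Cre-positive samples 17.3 to 24.3 CPM. In the run from 3296 to 3300 the 3 controls had 25.3 to 30.3 CPM and the Cre-positive sample 23.7 CPM. In the run from 4301 to 4307 the 2 controls had 27.5 and 29.1 CPM and the Cre-positive sample 20.5 CPM. The within-run differences in mean log2 CPM were -0.36, -0.24 and -0.46, and with the run as a term in edgeR the log2 fold change was -0.35 (SE 0.098, adjusted p = 0.49).

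Next to this result, microglial markers were measured because microglia are the main cells of the Vav1 lineage in brain. All 18 microglial markers were tested and 0 passed in edgeR, with 4 lower and 0 higher at an unadjusted p under 0.05 (7.25% of all genes were lower at that level) and 1 (Tyrobp) lower in DESeq2. Their sum was 1100 to 1287 CPM in controls and 1019 to 1218 CPM in Cre-positive samples. The 12 markers of disease-associated microglia had a median log2 fold change of -0.30, against -0.05 for the microglial markers. Of these 12, 0 passed in edgeR, 6 were lower at an unadjusted p under 0.05 and 4 in DESeq2 (Cst7, Cd68, Ccl6 and Igf1). Over all genes DESeq2 called 0.782% lower. The 12 markers summed to 341 to 453 CPM in controls and 336 to 371 CPM in Cre-positive samples. No marker of either list had a median of 0 reads. In bulk tissue fewer cells of a type and less RNA per cell cannot be told apart. With the microglial marker score as a term in edgeR, Lpcat3 differed by -0.46 (SE 0.10, adjusted p = 0.32), beside -0.45 (SE 0.088) without it. The part of microglial number in the Lpcat3 difference was not tested. Of 7 inhibitory neuron markers 3 were lower at an unadjusted p under 0.05 and 1 (Pvalb) in DESeq2, with a median log2 fold change of -0.12 and sums of 634 to 887 CPM in controls and 612 to 699.6 CPM in Cre-positive samples. Of 10 oligodendrocyte markers 2 were lower at an unadjusted p under 0.05 and 1 (Opalin) in DESeq2, with a median of -0.10 and sums of 6190 to 7866 and 5908 to 7799 CPM. Lower at that unadjusted level were also 2 of 9 astrocyte, 1 of 5 oligodendrocyte precursor and 1 of 8 endothelial and mural cell markers. Of 7 excitatory neuron markers 1 was higher at that level, and DESeq2 called 1 (Neurod2) higher. In edgeR 0 markers of these lists passed, and the part of these lists in the Lpcat3 difference was not tested. Of 7 markers of border-associated macrophages 4 were tested, with a median log2 fold change of 0.02. None of these was lower or higher at an unadjusted p under 0.05 in edgeR, and DESeq2 called 0. Lymphocyte markers summed to at most 2.34 CPM and neutrophil and monocyte markers to at most 2.09 CPM in any sample. Cd8a, Ms4a1, Ly6g, Mmp8 and Plac8 were among the markers with a median of 0 reads.

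The genes next to Lpcat3 on chromosome 6 showed no detectable difference. Of the 5 nearest protein-coding genes on each side, 7 were tested and 0 passed in edgeR, none with an unadjusted p under 0.05. Emg1, which overlaps the end of Lpcat3, was at 22.0 ± 2.03 CPM in controls and 21.2 ± 1.68 CPM in Cre-positive samples (log2 fold change -0.05, SE 0.076, adjusted p = 0.84 in edgeR). The within-library ratio of Lpcat3 to Emg1 was 1.145 to 1.43 in controls and 0.789 to 1.10 in Cre-positive samples, and these ranges did not overlap. The ratios of Lpcat3 to Phb2 (0.521 to 0.697 and 0.401 to 0.554) and to Ptpn6 (2.0 to 2.47 and 1.10 to 2.17) did overlap between groups. Lpcat3 alone did not overlap, and the share of all genes with such a ratio apart was not computed. Phb2, a mitochondrial prohibitin gene, was at -0.10 (SE 0.064). Ptpn6, which encodes the phosphatase SHP-1 of blood cells and microglia, was at 12.8 ± 0.894 and 13.1 ± 1.86 CPM (log2 fold change 0.02, SE 0.097). Grcc10 was at -0.08 (SE 0.14). On the other side lie complement protease genes with few reads, among them C1ra (0.06, SE 0.26), C1s1 (0.13, SE 0.30) and C1rl (-0.51, SE 0.46). C1s2, C1rb and Gm45234 had at most 13 reads in any library and were not tested.

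**Figure D2:**
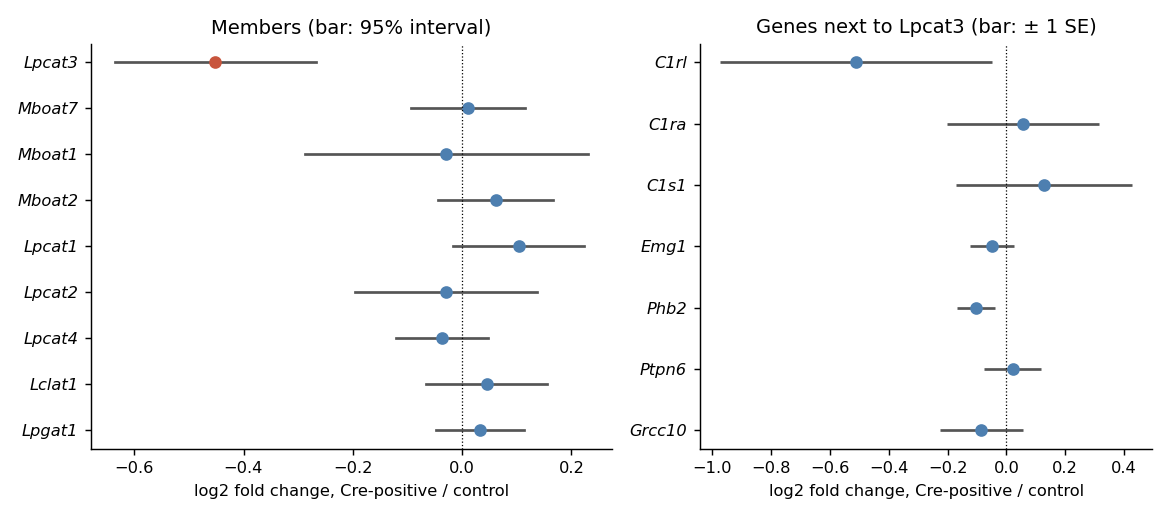
Log2 fold change of Cre-positive over control samples (horizontal axes) for the 9 acyltransferase genes with 95% intervals (left) and for the 7 tested neighbours of Lpcat3 with ± 1 SE (right), from edgeR on 6 controls and 7 Cre-positive samples. The interval of Lpcat3 runs from -0.64 to -0.27, and the intervals of the other 8 genes all include 0.

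The other membrane-bound O-acyltransferases showed no detectable difference. Mboat7 attaches arachidonic acid to lysophosphatidylinositol and so handles the same fatty acid as Lpcat3 on another head group. Mboat7 (ENSMUSG00000035596, chromosome 7) ranged from 101.4 through a median of 108 to 117 CPM in controls and from 100.8 through 111 to 120 CPM in Cre-positive samples. The groups covered almost the same range, and the log2 fold change was 0.01 (SE 0.050, 95% interval -0.09 to 0.11, adjusted p = 0.96 in edgeR). Tsen34, the opposite-strand gene that overlaps it, was at 57.4 ± 6.11 and 49.9 ± 2.75 CPM (-0.20, SE 0.064, adjusted p = 0.22 in edgeR). Mboat2 (ENSMUSG00000020646, chromosome 12), which acts on lysophosphatidylcholine and lysophosphatidylethanolamine, ranged from 67.4 through 70.9 to 79.2 CPM and from 71.1 through 72.6 to 83.0 CPM. All 7 Cre-positive samples were above the control median and 3 controls lay below every Cre-positive sample, but the groups overlapped (log2 fold change 0.06, SE 0.050, 95% interval -0.04 to 0.17, adjusted p = 0.65 in edgeR). Mboat1 (ENSMUSG00000038732, chromosome 13), which acts on lysophosphatidylethanolamine and lysophosphatidylserine, was the lowest member, with 67 to 125 reads per library. It ranged from 4.96 through 6.27 to 6.66 CPM in controls and from 4.55 through 5.54 to 7.48 CPM in Cre-positive samples. The spread was wider in the Cre-positive group, with replicates 5 and 6 above every control and replicate 3 below every control. Its log2 fold change was -0.03 (SE 0.12, 95% interval -0.29 to 0.23, adjusted p = 0.95 in edgeR), the widest interval of the 9 genes.

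Of the 3 other genes with the Lpcat name, Lpcat1 had the largest value. Lpcat1 makes saturated phosphatidylcholine, the main lipid of lung surfactant, and also acts in the retina. Lpcat1 (ENSMUSG00000021608, chromosome 13) ranged from 50.5 through 58.2 to 64.8 CPM in controls and from 57.9 through 64.0 to 68.1 CPM in Cre-positive samples. Replicates 1 and 5 of the Cre-positive group lay above every control, and 3 controls lay below every Cre-positive sample. The log2 fold change was 0.10 (SE 0.057, 95% interval -0.02 to 0.22, unadjusted p = 0.088, adjusted p = 0.48 in edgeR). Within the runs it differed by 0.07, 0.05 and 0.01 in mean log2 CPM.

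Lpcat2 makes phosphatidylcholine and, in activated inflammatory cells, platelet-activating factor, and in mouse brain it is known mainly from microglia. Lpcat2 (ENSMUSG00000033192, chromosome 8) ranged from 23.4 through 25.0 to 30.3 CPM in controls and from 22.9 through 24.9 to 28.6 CPM in Cre-positive samples. Control replicates 5 and 6, both from the run 4301 to 4307, had 30.3 and 30.2 CPM and were the highest of all 13 samples, while the other 4 controls were at 25.4 CPM or less. The log2 fold change was -0.03 (SE 0.079, 95% interval -0.20 to 0.14, adjusted p = 0.92 in edgeR). Within the runs it differed by 0.09, 0.03 and -0.33, and without the samples of the third run it was 0.10 (SE 0.078, adjusted p = 0.62). Lpcat4, also known as Lpeat2, acts on lysophosphatidylethanolamine and is abundant in brain. It (ENSMUSG00000027134, chromosome 2) ranged from 76.3 through 80.3 to 84.2 CPM in controls and from 75.1 through 77.3 to 80.9 CPM in Cre-positive samples. Lpcat4 had the smallest spread of the 9 genes in both groups (coefficient of variation 3.55% and 3.26%), and its log2 fold change was -0.04 (SE 0.040, 95% interval -0.12 to 0.05, adjusted p = 0.75 in edgeR).

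Lclat1 and Lpgat1 likewise did not pass. Lclat1 remodels cardiolipin and phosphatidylinositol. It (ENSMUSG00000054469, chromosome 17) ranged from 46.1 through 49.9 to 53.1 CPM in controls and from 46.3 through 51.6 to 57.0 CPM in Cre-positive samples, and the groups overlapped widely (log2 fold change 0.04, SE 0.053, 95% interval -0.07 to 0.16, adjusted p = 0.78 in edgeR). Lpgat1 was named for lysophosphatidylglycerol and also places stearic acid in phosphatidylethanolamine. It (ENSMUSG00000026623, chromosome 1) ranged from 168 through 182 to 187 CPM in controls and from 173 through 186 to 194 CPM in Cre-positive samples. Replicates 3 and 4 of the Cre-positive group lay above every control (log2 fold change 0.03, SE 0.038, 95% interval -0.05 to 0.11, adjusted p = 0.77 in edgeR).

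Read as a list, 4 of the 9 members had negative values, Lpcat3 included, against 51.3% of all genes tested. The median log2 fold change was 0.01 for the 9 members and 0.02 for the 8 without Lpcat3, against -0.0041 for all genes. The lower bounds of the other 8 intervals lay between -0.29 (Mboat1) and -0.02 (Lpcat1), above the value of -0.45 found for Lpcat3. The interval of Lpcat3 itself ran from -0.64 to -0.27 and overlapped that of Mboat1 (-0.29 to 0.23). Whether the difference in Lpcat3 was unlike that in each other member was not tested. The ratio of Lpcat3 to another member within a library did not overlap between groups for Mboat2, Lpcat4 and Lclat1 and did overlap for Mboat7, Mboat1, Lpcat1, Lpcat2 and Lpgat1. For Lpcat3 to Lpcat4, for example, it was 0.311 to 0.382 in controls and 0.226 to 0.301 in Cre-positive samples. As Lpcat3 alone did not overlap between groups, its ratio to any gene of steady level can stay apart. How often it did so over all genes was not computed, so these counts are no result about the other members.

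Levels of different genes were compared per kilobase of exon, with every annotated exon of a gene counted in its length. This length exceeds that of the transcript with the longest coding sequence, by unlike amounts. It was 2823 against 2275 bases for Lpcat4, 7610 against 2792 for Lpgat1 and 9566 against 2351 for Mboat2. The order, shares and sums below rest on this choice. With the transcript lengths, Lpgat1 (181 CPM in controls) would stand above Lpcat4 (80.3 CPM). Per kb of annotated exon, Lpcat4 was highest in controls at 28.4 ± 1.01 CPM per kb (SD, n = 6), followed by Lpgat1 at 23.7 ± 0.917. Then came Mboat7 at 13.01 ± 0.769, Lpcat1 at 12.6 ± 1.02 and Lclat1 at 10.2 ± 0.475 CPM per kb. Lpcat3 was sixth at 8.46 ± 0.679, ahead of Lpcat2 at 7.77 ± 0.905, Mboat2 at 7.50 ± 0.452 and Mboat1 at 1.67 ± 0.164 CPM per kb. The control ranges of Mboat7 and Lpcat1 overlapped, as did those of Lpcat3 and Lpcat2 and of Lpcat2 and Mboat2. The order within these neighbours is therefore not resolved, and on this scale all other neighbours were separate. In Cre-positive samples Lpcat3 was at 6.18 ± 0.865 CPM per kb (SD, n = 7) and stood at place 8 in place of 6. Its range there (5.28 to 7.45) still overlapped those of Lpcat2 (from 6.76) and Mboat2 (from 7.43), so places 6 to 8 are not resolved. Mboat7 and Lpcat1 also changed order, as did Lpcat2 and Mboat2. The share of Lpcat3 in the summed level of the 9 genes was 6.68% to 8.48% in controls and 4.79% to 6.57% in Cre-positive samples. The sum of the other 8 genes was 105 ± 2.47 CPM per kb in controls and 106 ± 2.08 in Cre-positive samples, with ranges of 99.9 to 107 and 103 to 108 that overlapped.

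**Figure D3:**
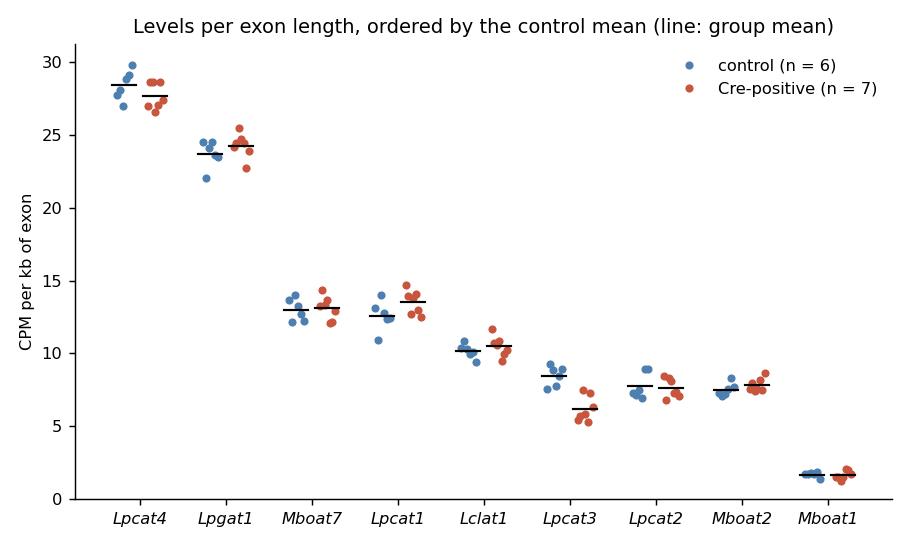
Levels of the 9 genes in CPM per kb of exon (vertical axis, linear from 0), ordered by the control mean, with 1 point per library for controls (blue, n = 6) and Cre-positive samples (red, n = 7) and a line at each group mean. With every annotated exon counted in the length, Lpcat4 (28.4) and Lpgat1 (23.7) stand above the rest in controls and Mboat1 (1.67) below. Lpcat3 is at 8.46 in controls and 6.18 in Cre-positive samples.

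The members also differed in how much they varied between libraries of a group. Lpcat3 had an SD of 2.22 on a mean of 27.6 CPM in controls (8.03%) and of 2.83 on 20.2 CPM in Cre-positive samples, where counting alone would give about 5.36%. For Mboat1 the coefficients of variation were 9.77% and 17.9% against 10.6% from counting. Lpcat2 varied by 11.6% and 8.52% against 5.11%. For the remaining 6 genes the values lay between 3.26% and 8.13%.

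Likeness to Lpcat3 was measured over the 13 libraries as the correlation of log2 CPM with Lpcat3 after each group's mean was removed. Of 17548 other genes 0 passed after adjustment (Pearson, smallest adjusted p = 0.92; Spearman, 0.995, permutation within groups), and 5.11% had an unadjusted p under 0.05. The 5 genes with the highest r among those with a mean of at least 5 CPM are therefore given as a description. They were Slc35b1 (r = 0.86), an endoplasmic reticulum nucleotide sugar transporter family gene, Carnmt1 (0.81), Znhit6 (0.80), Rilpl2 (0.80) and Slf1 (0.79). The lowest were Eea1 (-0.87), an early endosome tethering factor gene, and Wdr59 (-0.87). For Slc35b1 rho was 0.87, the permutation p was 0.0011 for r and 0.00093 for rho, r was 0.91 in the 6 controls and 0.85 in the 7 Cre-positive samples, and 0.80 without the 2 libraries farthest from the Lpcat3 median. For Eea1 rho was -0.90, the permutation p was 1.6e-04 for r and 2.0e-04 for rho, and r was -0.80 without the 2 farthest libraries.

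Among the other members, Lpcat1 varied against Lpcat3 most, with r = -0.61 and rho = -0.68 (permutation p = 0.023 and 0.017, adjusted over all genes 0.92 and 0.995). With group means alone removed, the other 7 members lay between -0.36 (Lpgat1) and 0.43 (Lpcat4). Without the 2 libraries farthest from the Lpcat3 median r was -0.50 for Lpcat1, and with run means removed as well it was -0.52. Lpcat1 was not the lowest member in either case. Mboat7 was at -0.61 without those 2 libraries, and Mboat2 (-0.71) and Mboat1 (-0.54) were lower with run means removed. The 18 microglial markers had a median r of -0.02 with Lpcat3, 9 of them positive, against 0.0041 for all genes.

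The steps around lysophospholipid acylation were read from lists of named genes. In none of the 5 lists did a gene pass in edgeR after adjustment over all genes. Counts at an unadjusted p under 0.05 are given beside the 7.25% of all genes that were lower and the 5.23% that were higher in Cre-positive samples at that level; genes named from these counts beyond the leading pair of each list were chosen after their values were seen.

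Most genes listed as glycerolipid acyltransferases use related chemistry to build phosphatidic acid, triglycerides or sterol esters. Others, such as Pla2g15, act on phospholipids already made. Of 16 genes 14 were tested, with 7 positive and 7 negative values and a median log2 fold change of 0.01. Only Agpat2, which makes phosphatidic acid and had few reads here, had an unadjusted p under 0.05, at 2.78 ± 0.523 CPM in controls and 2.05 ± 0.584 CPM in Cre-positive samples (-0.44, SE 0.20, adjusted p = 0.36 in edgeR). Pla2g15, the lysosomal phospholipase and transacylase, came next at 0.10 (SE 0.060). DESeq2 called 0 of the 14.

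Phospholipases A and lysophospholipases make and clear the lysophospholipids that the members use. Of 28 genes 22 were tested, 9 positive and 13 negative, with a median of -0.01. Plaat1, a phospholipase and acyltransferase, had 27.4 ± 4.09 and 23.7 ± 2.24 CPM (-0.21, SE 0.092, adjusted p = 0.36 in edgeR) and was the 1 gene with an unadjusted p under 0.05. Gpcpd1, which breaks down glycerophosphocholine, was at -0.09 (SE 0.046). DESeq2 called 0 of the 22.

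Most acyl-CoA supply genes help provide the activated fatty acids that the members attach, but the list also holds a thioesterase that removes them. All 20 were tested, 14 positive and 6 negative, with a median of 0.07 against -0.0041 for all genes. An unadjusted p under 0.05 was held by 5, all with positive values: Elovl4, Elovl6, Scd1, Elovl5 and Acsl3. Elovl4, which elongates very long polyunsaturated fatty acids, was at 117 ± 8.66 CPM in controls and 131 ± 4.32 CPM in Cre-positive samples (0.17, SE 0.047, adjusted p = 0.17 in edgeR) and was the 1 gene that DESeq2 called. Elovl6, which elongates saturated fatty acids, was at 51.9 ± 2.88 and 59.0 ± 4.37 CPM (0.18, SE 0.056, adjusted p = 0.20 in edgeR). Elovl5 (0.10, SE 0.037), which elongates polyunsaturated fatty acids, Acsl3 (0.11, SE 0.052), a long-chain acyl-CoA synthetase, and Scd1 (0.30, SE 0.11), a desaturase, had groups that overlapped, as did every gene of this list.

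Head group synthesis genes make new phosphatidylcholine, phosphatidylethanolamine, phosphatidylserine and phosphatidylinositol. All 22 were tested, 15 positive and 7 negative, with a median of 0.01. Chka, the choline kinase at the start of phosphatidylcholine synthesis, was at 136 ± 5.21 and 150 ± 7.23 CPM (0.14, SE 0.041, adjusted p = 0.20 in edgeR). Ptdss1, a phosphatidylserine synthase, was at 93.5 ± 6.16 and 101.4 ± 2.09 CPM (0.12, SE 0.044), and Cept1, the enzyme that finishes both main phospholipids, at 0.10 (SE 0.046). These 3 were the genes with an unadjusted p under 0.05, and DESeq2 called 0 of the 22.

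Lpcat3 is a known target of the liver X receptors (LXR) and of PPAR receptors, so these receptors and other targets were read as well. All 19 were tested, 9 positive and 10 negative, with a median of -0.0031. Nr1h3, the gene of LXR alpha, ranged from 3.02 to 3.77 CPM in controls and from 3.48 to 4.73 CPM in Cre-positive samples (0.28, SE 0.12, unadjusted p = 0.033, adjusted p = 0.35 in edgeR). Nr1h2, the gene of LXR beta, was at 36.8 ± 3.58 and 36.5 ± 1.61 CPM (-0.01, SE 0.062). Among targets, Abca1 (-0.07, SE 0.096) and Abcg1 (-0.08, SE 0.043), which export cholesterol, did not pass, Scd1 was at 112 ± 9.36 and 139 ± 30.3 CPM (0.30, SE 0.11, adjusted p = 0.27 in edgeR), and Apoe was at -0.27 (SE 0.060, adjusted p = 0.097 in edgeR). DESeq2 called 1 of the 19, Apoe. Values of Scd1 and Apoe thus lay on opposite sides of 0. Nr1h3, Scd1 and Apoe were the genes of this list with an unadjusted p under 0.05.

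**Figure D4:**
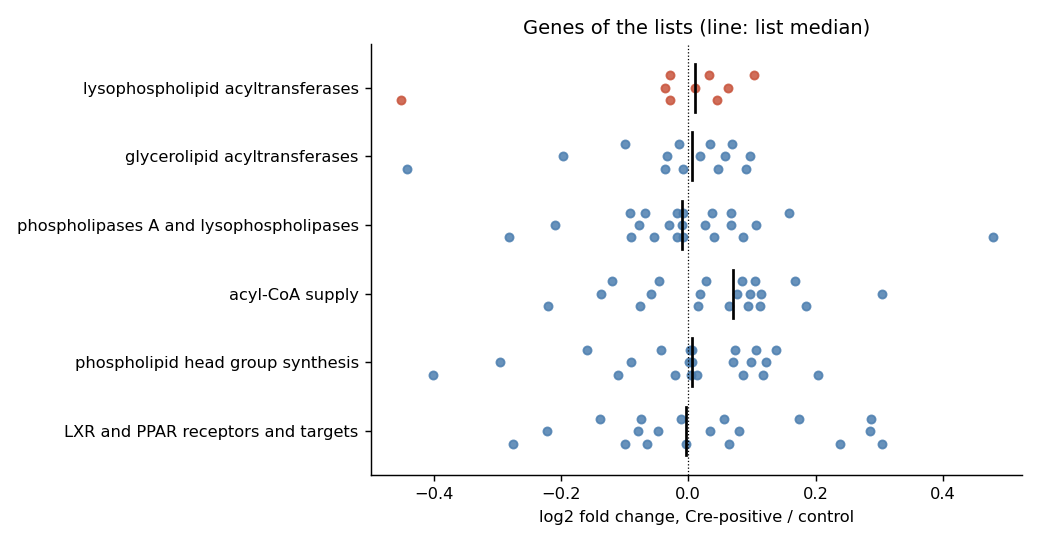
Log2 fold change of Cre-positive over control samples (horizontal axis) for each tested gene of the 9 acyltransferases (red) and the 5 related lists (blue), with a line at each list's median; Scd1 and Scd2 stand in 2 lists. Lpcat3 is the acyltransferase at -0.45, the other 8 lie between -0.04 and 0.10, and the list medians lie between -0.01 and 0.07.

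The value of Lpcat3 was recomputed with other tools, scalings, filters, terms and samples. Over 27 alternatives its log2 fold change lay between -0.50 and -0.35 and was negative in all 27, with adjusted p between 0.0020 and 0.49. It passed 0.05 in 5 of them: DESeq2, edgeR with no filter on low counts (adjusted p = 0.015), edgeR with the choroid plexus score as a term (0.023), and edgeR without control replicate 1 (0.034) or without Cre-positive replicate 3 (0.028). None of the other 8 members passed in any of the 27.

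**Figure D5:**
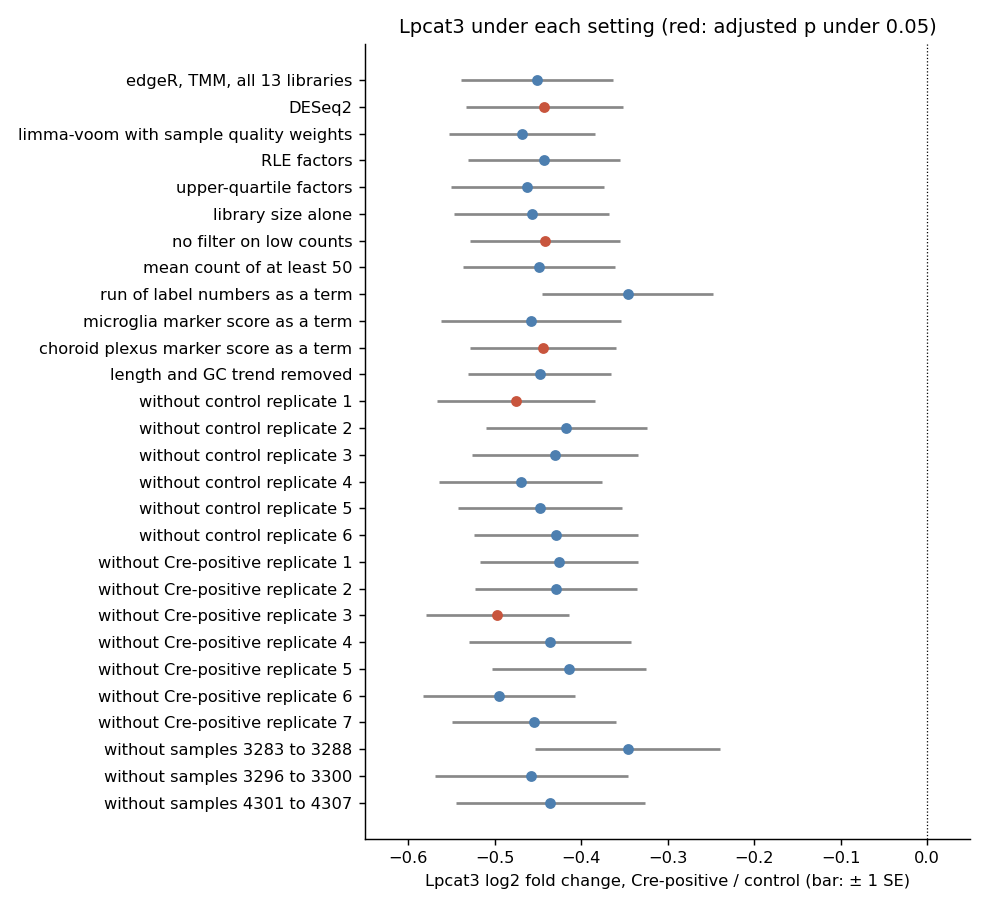
Log2 fold change of Lpcat3 (horizontal axis, ± 1 SE) under the setting used for the report (top) and 27 alternatives; red marks an adjusted p under 0.05. All points lie between -0.50 and -0.35, with those for the run term and for the samples outside 3283 to 3288 nearest to 0.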

How the data were processed

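Bulk RNA of 13 hippocampus samples (6 controls, 7 Cre-positive) was prepared with the SMART-Seq mRNA LP kit, per the labels' protocols. The authors deposited whole-number read counts per Ensembl gene, not normalized. Per the submitters' processing notes, the build was GRCm39 and the tools were featureCounts 2.0.3, STAR 2.7.10a, DESeq2 1.36.0 and R 4.2.0. The annotation release, the strand setting and the treatment of multimapped reads were not given in the sources used here. Columns were matched by the number in each title. Symbols (52073 genes, 99.7% of counts), exon lengths and sequences came from GENCODE M21 on GRCm38, so no coordinates are given.

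Groups were compared on the counts by the quasi-likelihood test of edgeR 4.0.16 (R 4.3.3) after filterByExpr and TMM scaling, without covariates. Benjamini-Hochberg adjustment covered the 17549 genes tested. CPM used TMM factors, and log2 CPM a prior count of 2. Correlations used 100000 permutations within groups. Alternatives were DESeq2 1.42.0, limma 3.58.1 (voom with sample weights), other scalings and filters (a mean count of 50), run, microglia and choroid plexus terms, removal of length and GC trends (lowess, span 0.4), and omission of each library or run. Scripts were tested on simulated data. Counts of every pair of libraries in a group differed beyond sampling noise (lowest chi-square per gene 3.13), and all 13 were kept.

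Named genes were all 9 members, the 5 most and 2 least like Lpcat3, its 5 nearest protein-coding genes on each side, and the 2 lowest p-values of each list. In the LXR and PPAR list Nr1h2, Abca1 and Abcg1 were named outside this rule. The members and lists were chosen with earlier results of these data known.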

Additional observations from a re-analysis of the deposited data

Results flagged for a closer look

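One value stood apart from the rest of its group. Mboat1 in control replicate 6 was at 4.96 CPM, against 6.16 to 6.66 CPM in the other 5 controls, a gap of 0.706 of the group's range where 0.625 is the 95% limit of Dixon's test for 6 samples. Of 18 groups (9 genes, 2 groups each) 1 was marked, and chance marks about 1 in 20. Mboat1 had 67 to 125 reads per library, the fewest of the 9 genes.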

How the results depend on the processing

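No paired analysis was possible because the labels give the groups no shared replicate numbers. Lpcat3 was lower in all 27 alternatives. It passed with DESeq2 (-0.44), without a count filter (-0.44) and with the choroid plexus term (-0.44); leaving out 1 library gave -0.50 to -0.41, passing without control replicate 1 or Cre-positive replicate 3. Members called were therefore 1 with DESeq2, without a filter and with the choroid plexus term, and 0 to 1 when 1 library was left out, in place of 0. Signs turned for members near 0, none of them called. Mboat7 was at -0.0013 with voom, -0.037 with the run term, -0.0096 with the microglia term, -0.039 without samples 3283 to 3288 and -0.012 without samples 4301 to 4307. Mboat1 was at 0.046 with the run term and 0.16 without samples 3283 to 3288. Lpcat2 was at 0.10 without samples 4301 to 4307. Lclat1 was at -0.0027 without samples 3283 to 3288. Lpgat1 was at -0.0087 with the run term and -0.012 without samples 3283 to 3288. Leaving out 1 library gave -0.0084 to 0.040 for Mboat7, -0.087 to 0.035 for Mboat1 and -0.056 to 0.021 for Lpcat2. The cause was not tested. Lpcat1 (0.032 to 0.14), Mboat2 (0.036 to 0.099) and Lpcat4 (-0.060 to -0.0046) kept their sign in all 27, with values that moved by over 1.5 times. The order by level per length was the same in TPM, which uses the same exon lengths. Within a library TPM cannot change this order, so it is no separate check. No gene passed as like Lpcat3 with group means kept, with run means removed as well or without the 2 farthest libraries. Over all genes edgeR called 4, against 181 in DESeq2, 66 without a filter, 77 with the choroid plexus term and 80 without control replicate 1. With 67 to 125 reads per library, counting alone gives Mboat1 a coefficient of variation of 10.6%.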
